A study of Mus musculus with 9 samples.

Results

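The genes described here are 10 members of the tumour necrosis factor (TNF) superfamily that T cells make, chosen by symbol: the 6 ligands Tnf, Lta, Ltb, Cd40lg, Tnfsf8 and Fasl, and the 4 receptors Tnfrsf4, Tnfrsf9, Tnfrsf18 and Tnfrsf1b. All 10 were found among the 39253 genes of the deposited table. RNA was measured in CD4+ T cells of mice on day 9 of experimental autoimmune encephalomyelitis (EAE), an autoimmune disease of brain and spinal cord that is induced to model multiple sclerosis. There were 5 libraries labelled ERα KO (knockout of estrogen receptor alpha, the product of Esr1) and 4 labelled wildtype, all at the same day of EAE. Batch 1 held 3 KO and 2 wildtype libraries, and batch 2 held 2 KO and 2 wildtype libraries. The series title concerns ERα in dendritic cells, while the sample labels do not state in which cells Esr1 was deleted, with which Cre or allele, or the tissue, age and sex. They do not state either whether libraries came from separate or pooled animals, so p-values here measure the spread between these libraries, which may be technical.

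Ligands of the TNF superfamily are mostly membrane proteins that act as trimers, and some are cut from the cell surface to act in soluble form. Their receptors recruit adaptor proteins of the TRAF family and switch on NF-κB, or, where they carry a death domain, start cell death. On CD4+ T cells the ligands deliver help and effector signals to B cells, dendritic cells and stroma, and the receptors described here are costimulatory receptors that rise with activation and stand high on regulatory T cells.

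The libraries differed in ways that touch every value below. Esr1 had 9.58, 6.31 and 13.0 CPM (counts per 1e6 counts of the library) in the KO libraries of batch 1, against 4.87 and 16.2 CPM in its wildtype libraries, so the groups overlapped. In batch 2 it had 0.143 and 0.256 CPM in KO libraries, against 1.45 and 1.69 CPM in wildtype libraries (edgeR log2 fold change -2.96 ± 0.70 (SE), adjusted p = 0.618). Batch 1 was sequenced to 4926347 to 11296593 counts per library and batch 2 to 45013017 to 69844721. At these depths 3 counts were worth 0.043 to 0.609 CPM, and the lowest count of any member was 48, for Fasl in wildtype replicate 2. Batch 1 had counts in 32046 to 34085 genes per library and batch 2 in 17008 to 18309. Sensory receptor genes, which T cells do not use, made up 0.0574% to 0.255% of the counts of batch 1 libraries, against 0.00258% to 0.0037% for batch 2. KO replicate 3 stood apart: its TMM scaling factor, which corrects for the make-up of a library, was 1.727, against 0.789 to 1.263 in the other libraries, and it was the only library of batch 1 with Ddx3y, a gene of the Y chromosome (55.4 CPM), while Xist, expressed from the inactive X, was at 30.4 CPM in it and at 1740.0 to 2680.0 CPM in the other libraries of batch 1. All 4 libraries of batch 2 had Ddx3y, at 93.6 to 107.0 CPM. Cd4 was at 925.0 to 1030.0 CPM in KO and 1110.0 to 1140.0 CPM in wildtype libraries of batch 1, and at 1310.0 to 1320.0 CPM in KO and 1150.0 to 1310.0 CPM in wildtype libraries of batch 2. Cd3e was lower in KO libraries in batch 1 by CPM (1070.0 to 1080.0 CPM, against 1230.0 CPM in both wildtype libraries) and higher in them in batch 2 (1470.0 to 1520.0 CPM, against 1270.0 to 1290.0 CPM). Cd8a did not exceed 5.13 CPM.

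All 10 members were expressed in all 9 libraries and passed the low-count filter in every comparison. None was called different between KO and wildtype, in either batch or over both: 0 of 10 members passed an adjusted p of 0.05 (edgeR quasi-likelihood test, Benjamini-Hochberg adjustment over all genes). None of the 10 had an unadjusted p under 0.05 in these 3 fits, and DESeq2 and limma-voom also called 0. Over both batches 1 of 22197 genes tested was called (0.00451%), in batch 1 31 of 24600 (0.126%) and in batch 2 0 of 15910 (0%). In batch 2, 1237 genes had an unadjusted p under 0.05 and DESeq2 called 329, none of them a member. With so few genes called in all, a count of 0 among 10 members does not set them apart from other genes. What the data give for these genes are levels, the size of difference that the libraries still allow, and patterns across libraries.

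Levels between genes can be compared only per length of transcript. Per kilobase of annotated exon, Ltb and Cd40lg were the most abundant members, with means over the 9 libraries of 179.0 ± 28.3 and 115.0 ± 26.5 CPM per kb (SD). Ltb, a membrane ligand that anchors lymphotoxin to the cell surface, exceeded Cd40lg in 9 of 9 libraries. Cd40lg, the ligand through which helper T cells activate B cells and dendritic cells, exceeded Tnfrsf4, the next gene, in 9 of 9. Behind them Tnfrsf4, Tnfrsf1b, Tnfrsf18, Tnf and Tnfsf8 had means of 24.7 ± 7.95, 23.3 ± 6.5, 21.3 ± 4.27, 20.9 ± 4.7 and 19.6 ± 2.61 CPM per kb, and no neighbours in that order kept it in more than 6 of 9 libraries. Tnfsf8 exceeded Lta (10.6 ± 2.09 CPM per kb) in 9 of 9 libraries, and Lta exceeded Tnfrsf9 (8.4 ± 3.61 CPM per kb) in 4 of 9. Fasl, the ligand of the death receptor Fas, was lowest, at 4.79 ± 1.04 CPM per kb, and lay under Tnfrsf9 in 8 of 9 libraries.

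**Figure D1:**
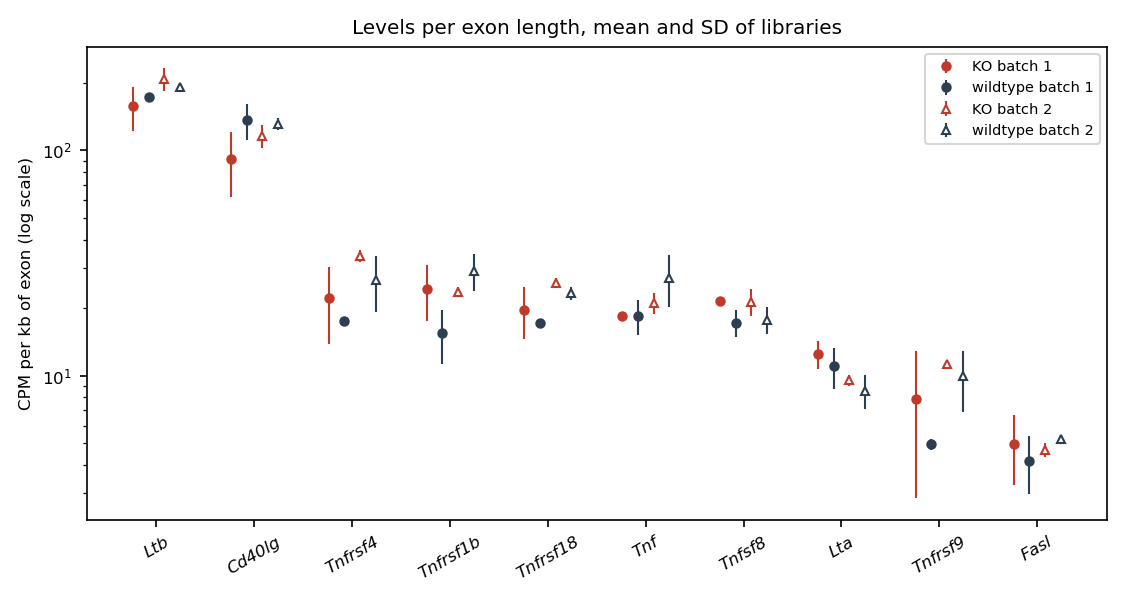
Level of each gene as CPM per kilobase of annotated exon on a log scale, with the mean and SD for KO (red) and wildtype (dark) libraries of batch 1 (filled circles; n = 3 and 2) and batch 2 (open triangles; n = 2 and 2). Ltb and Cd40lg stand above the other genes in both batches, and Fasl is at the low end.

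The genes lie in known clusters. Ltb, Tnf and Lta are direct neighbours on chromosome 17, and Tnfrsf4 and Tnfrsf18 are direct neighbours on chromosome 4, where Tnfsf8, Tnfrsf9 and Tnfrsf1b also lie, while Fasl is on chromosome 1 and Cd40lg on chromosome X (RefSeq gene order). The stretches before the transcription starts of these 2 clusters and of Tnfrsf9 are shown because motifs of the activation-induced factors NF-κB, NFAT and AP-1 were searched in them. Tnfrsf9 was the member that varied most between libraries, and only the second of its 2 annotated starts is shown. Each is the last 130 bases before a start, 5′ to 3′ on the gene's strand (RefSeq, GRCm38.p6), with capitals for matches to the kappaB motif, to GGAAA (the core letters of NFAT sites; TTTCC on the other strand) or to TGANTCA (AP-1).
Tnf (chr17:35202008-35202137, minus strand): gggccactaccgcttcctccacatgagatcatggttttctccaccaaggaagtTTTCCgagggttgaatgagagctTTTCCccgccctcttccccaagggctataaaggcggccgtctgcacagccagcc
Lta (chr17:35205352-35205481, minus strand): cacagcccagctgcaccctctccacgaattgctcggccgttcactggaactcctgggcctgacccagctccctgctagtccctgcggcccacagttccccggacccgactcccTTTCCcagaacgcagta
Ltb (chr17:35194377-35194506, plus strand): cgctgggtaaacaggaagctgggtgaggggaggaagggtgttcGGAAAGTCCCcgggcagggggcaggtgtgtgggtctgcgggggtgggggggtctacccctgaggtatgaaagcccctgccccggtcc
Tnfrsf9 (chr4:150927869-150927998, plus strand): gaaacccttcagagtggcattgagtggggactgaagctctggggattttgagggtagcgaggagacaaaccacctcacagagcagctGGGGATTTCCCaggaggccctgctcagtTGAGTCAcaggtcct
Tnfrsf4 (chr4:156013565-156013694, plus strand): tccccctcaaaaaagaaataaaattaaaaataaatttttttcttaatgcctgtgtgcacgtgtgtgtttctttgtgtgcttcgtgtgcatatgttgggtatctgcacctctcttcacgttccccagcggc
Tnfrsf18 (chr4:156026192-156026321, plus strand): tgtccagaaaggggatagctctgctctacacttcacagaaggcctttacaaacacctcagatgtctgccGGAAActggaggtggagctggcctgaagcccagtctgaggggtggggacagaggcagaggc

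Within the 250 bases before a start, on both strands, GGAAA was present for 8 of the 9 members with a sequence in the RefSeq table, all but Tnfrsf1b, and 55.6% of all 32851 promoters held it. A kappaB match, which can overlap GGAAA, was present for 2 of the 9 (Ltb and Tnfrsf9, against 7.25% of promoters) and TGANTCA for 1 (Tnfrsf9, against 6.75%). For Tnfrsf9 these matches lie before the second of its 2 annotated starts, and the window of the first start held 0 of either. With 2 windows this gene had 2 chances of a match, while the shares of promoters count each window on its own. TATAAA was present for 2 (Tnf and Lta, against 12.4%). AGGTCA, the half-site of the estrogen response element, was found for 0 of the 9, against 14.0% of all promoters, which says only that these letters are not in these windows.

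**Figure D2:**
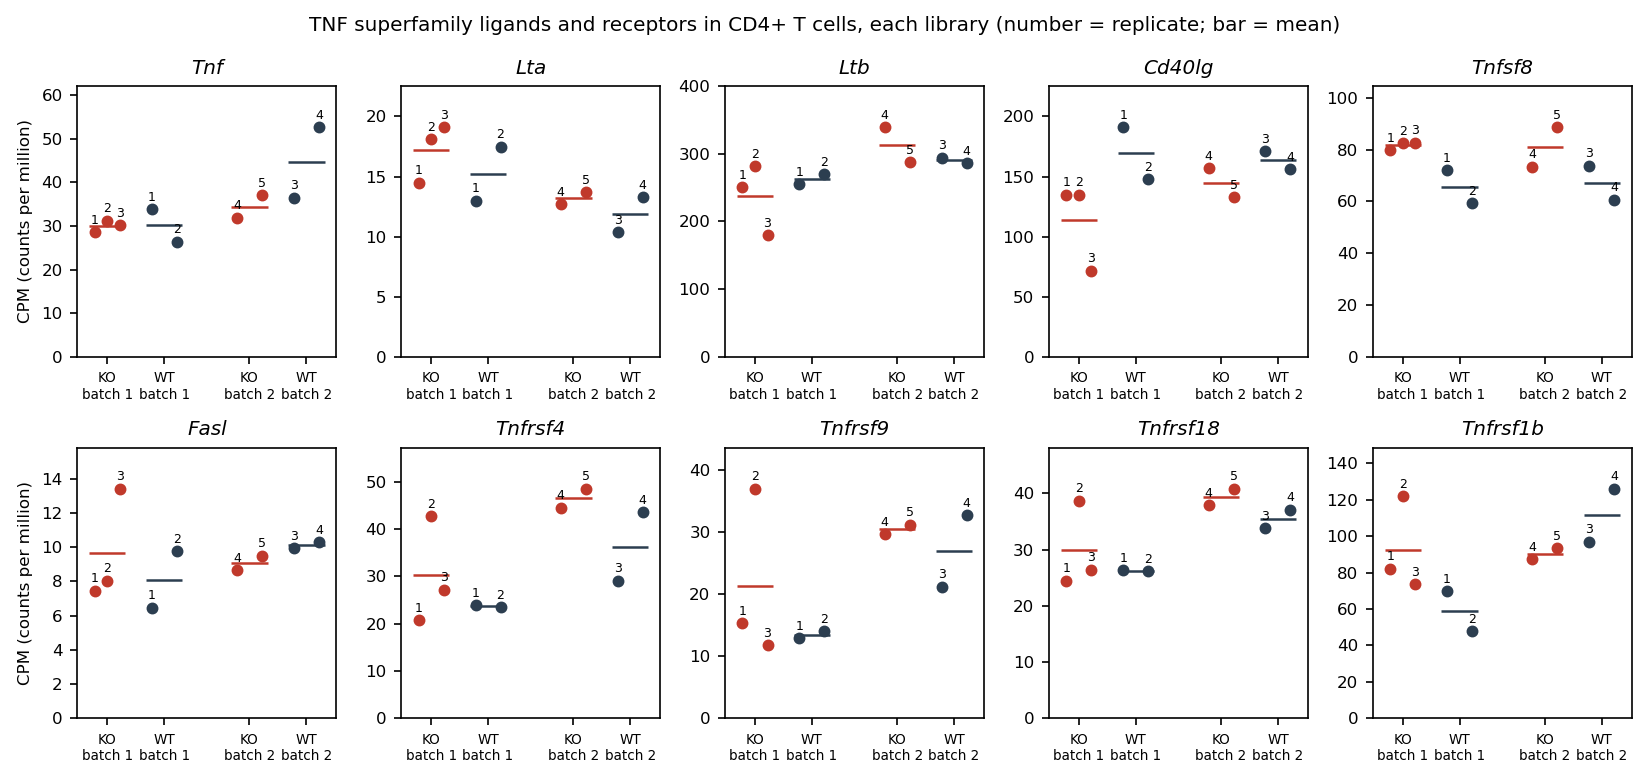
CPM of each gene in each of the 9 libraries (points, numbered by replicate), with the group mean as a bar, KO in red and wildtype in dark, batch 1 left and batch 2 right of each panel. KO and wildtype points overlap for 7 of 10 genes in batch 1 and 6 of 10 in batch 2, and KO replicate 2 is the highest library of batch 1 for all 4 receptors.

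Tnf, the founding inflammatory cytokine of the family, had 28.5, 31.2 and 30.2 CPM in KO libraries of batch 1, against 33.8 and 26.4 CPM in its wildtype libraries. Batch 2 gave 31.9 and 37.0 CPM in KO libraries, against 36.5 and 52.6 CPM in wildtype libraries. The groups overlapped in both batches, and wildtype replicate 4 was the highest of all 9 libraries. For Tnf the log2 fold change was -0.20 ± 0.15 over both batches (SE; 95% interval -0.52 to 0.11; edgeR adjusted p = 1.00). Lta, the soluble lymphotoxin subunit, had 14.5, 18.1 and 19.1 CPM in KO libraries of batch 1, against 13.0 and 17.5 CPM in wildtype libraries, and in batch 2 12.7 and 13.7 CPM in KO libraries, against 10.4 and 13.3 CPM in wildtype libraries. It varied least of the members about its batch means (SD 0.186 of log2(CPM + 1), centred within each batch, over 9 libraries), and its log2 fold change was 0.15 ± 0.16 (95% interval -0.21 to 0.51; edgeR adjusted p = 1.00).

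Ltb had 251, 282 and 180 CPM in KO libraries of batch 1, against 255 and 270 CPM in wildtype libraries. The batch 2 values were 339 and 288 CPM in KO libraries, against 294 and 286 CPM in wildtype libraries. The low value of 180 CPM was that of KO replicate 3, and the other 8 libraries lay between 251 and 339 CPM. Over both batches its log2 fold change was -0.05 ± 0.15 (95% interval -0.38 to 0.29; edgeR adjusted p = 1.00), so a change of Ltb beyond 0.769-fold or 1.22-fold lies outside the interval of that fit. The 95% interval within batch 1 was wider, 0.502-fold to 1.41-fold, and within batch 2 it was 0.881-fold to 1.33-fold. Without KO replicate 3 the log2 fold change over both batches was 0.0417.

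Cd40lg had the lowest fold change of the ligands over both batches. In batch 1 it had 135, 135 and 71.8 CPM in KO libraries, against 191 and 148 CPM in wildtype libraries, with every KO library under both wildtype libraries. Its values in batch 2 were 157 and 133 CPM in KO libraries, against 171 and 156 CPM in wildtype libraries, and KO replicate 4 lay above wildtype replicate 4. Its log2 fold change in batch 1 was -0.69 ± 0.38 (SE; edgeR adjusted p = 1.00), and in batch 2 it was -0.17 ± 0.13 (edgeR adjusted p = 0.781). Over both batches it was -0.41 ± 0.20 (95% interval -0.86 to 0.03; edgeR adjusted p = 1.00). In batch 1 it was -0.38 without KO replicate 3, -0.29 without wildtype replicate 1 and -1.02 without wildtype replicate 2. KO replicate 3, the library with Ddx3y in batch 1, had the lowest level of this X-linked gene. The libraries of batch 2 all had Ddx3y too, with 133 to 171 CPM of Cd40lg. The part of the Ddx3y difference in the result was not tested beyond leaving KO replicate 3 out. In bulk RNA, fewer cells that express a gene and less RNA per cell cannot be told apart.

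Tnfsf8 (CD30 ligand), which binds the receptor CD30 on activated lymphocytes, had 79.8, 82.5 and 82.7 CPM in KO libraries of batch 1, against 72.1 and 59.3 CPM in wildtype libraries. Tnfsf8 in batch 2 stood at 73.4 and 88.6 CPM in KO libraries, against 73.8 and 60.7 CPM in wildtype libraries. All KO libraries of batch 1 were above its wildtype libraries, and in batch 2 KO replicate 4 fell just under wildtype replicate 3. Among the members Tnfsf8 had the smallest unadjusted p over both batches, 0.0504, with a log2 fold change of 0.26 ± 0.12 (SE; edgeR adjusted p = 1.00); 523 of 22197 genes had an unadjusted p under 0.05. Without wildtype replicate 2 the value was 0.0633. Fasl had 7.45, 8.03 and 13.4 CPM in KO libraries of batch 1, against 6.46 and 9.74 CPM in wildtype libraries. Fasl in batch 2 stood at 8.64 and 9.5 CPM in KO libraries, against 9.95 and 10.3 CPM in wildtype libraries. The groups overlapped in batch 1, and both KO libraries lay under both wildtype libraries in batch 2. Its log2 fold change with both batches in the fit was 0.02 ± 0.24 (95% interval -0.50 to 0.55; edgeR adjusted p = 1.00), and its sign changed with the processing.

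Tnfrsf4 (OX40), a costimulatory receptor of activated CD4+ T cells, had 20.8, 42.7 and 27.2 CPM in KO libraries of batch 1, against 23.9 and 23.5 CPM in wildtype libraries. Batch 2 gave 44.5 and 48.5 CPM in KO libraries, against 29.1 and 43.5 CPM in wildtype libraries. KO replicate 2 stood high in batch 1, and in batch 2 both KO libraries lay above both wildtype libraries. The log2 fold change of Tnfrsf4 was 0.22 ± 0.37 in batch 1, 0.37 ± 0.19 in batch 2 (SE; edgeR adjusted p = 0.707) and 0.34 ± 0.20 over both (edgeR adjusted p = 1.00). In batch 2 without wildtype replicate 4, where 1 wildtype library is left and takes its spread from the KO pair, it was 0.63 with an edgeR adjusted p of 0.0437, in a fit that called 879 genes. Without wildtype replicate 3 it was 0.136 (edgeR adjusted p = 0.708). The adjusted p of Tnfrsf4 in batch 2 ran from 0.0437 to 1.00 over 11 settings.

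Tnfrsf18 (GITR), the neighbour of Tnfrsf4 and a receptor abundant on regulatory T cells, had 24.5, 38.7 and 26.4 CPM in KO libraries of batch 1, against 26.3 and 26.2 CPM in wildtype libraries. The batch 2 values were 37.9 and 40.8 CPM in KO libraries, against 33.8 and 37.1 CPM in wildtype libraries. KO replicate 2 was again the high library of batch 1, and the KO libraries of batch 2 lay above both wildtype libraries. Its log2 fold change was 0.15 ± 0.15 over both batches (SE; 95% interval -0.18 to 0.48; edgeR adjusted p = 1.00), and in batch 1 it was -0.24 without KO replicate 2, against 0.06 with it. Gm16008 overlaps Tnfrsf18 on the opposite strand, and the strand setting of the counting is not given in the sources used here, so reads of that gene cannot be told apart from those of Tnfrsf18.

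Tnfrsf9 (4-1BB, CD137), a receptor of recently activated and regulatory T cells, had the widest spread of the members. It had 15.3, 37.0 and 11.8 CPM in KO libraries of batch 1, against 12.9 and 14.0 CPM in wildtype libraries. Tnfrsf9 in batch 2 stood at 29.7 and 31.2 CPM in KO libraries, against 21.2 and 32.7 CPM in wildtype libraries. KO replicate 2 alone was high in batch 1, and the groups overlapped in both batches. The log2 fold change was 0.59 ± 0.43 in batch 1, 0.19 ± 0.21 in batch 2 and 0.42 ± 0.31 over both (SE; 95% interval of the last -0.27 to 1.12; edgeR adjusted p = 1.00 over both). Without KO replicate 2 it was 0.08 over both batches and -0.15 in batch 1. Tnfrsf9 overlaps Camta1 on the opposite strand, so its reads have the same limit. Camta1 had 50.0, 55.4 and 88.2 CPM in KO and 48.7 and 66.2 CPM in wildtype libraries of batch 1. In batch 2 it was at 29.7 to 37.5 CPM in KO and 41.8 to 45.4 CPM in wildtype libraries. The part of Camta1 reads in the Tnfrsf9 values was not tested.

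Tnfrsf1b (TNFR2), the TNF receptor without a death domain that is prominent on regulatory T cells, was the one member whose KO and wildtype libraries were apart in both batches by CPM, in opposite directions. In batch 1 it had 82.1, 122 and 73.6 CPM in KO libraries, against 69.8 and 47.7 CPM in wildtype libraries. In batch 2 it had 87.2 and 93.4 CPM in KO libraries, against 96.9 and 126 CPM in wildtype libraries. KO libraries were thus all above wildtype in batch 1 and all below in batch 2. Over all genes 10.9% were above in batch 1 and 20.5% below in batch 2. The share with both was not counted, so whether this pattern sets Tnfrsf1b apart from other genes was not tested. With TMM-scaled library sizes the Tnfrsf1b groups overlapped in batch 1, at 42.6 to 115.0 CPM in KO and 37.8 to 74.9 CPM in wildtype libraries. The log2 fold change was 0.51 ± 0.39 in batch 1 (edgeR adjusted p = 1.00) and -0.30 ± 0.14 in batch 2 (edgeR adjusted p = 0.678). The difference between them, batch 2 minus batch 1, was -0.92 ± 0.37 (SE; 95% interval -1.74 to -0.10; edgeR interaction term, unadjusted p = 0.0312, adjusted p = 0.591). It was the 1 member of 10 with an unadjusted p under 0.05 for that term, 0 of 10 were called, and over all genes 1855 of 22197 had such a p and 0.00451% were called. Wildtype replicate 2 was the lowest library for Tnfrsf1b. Without it the difference was -0.435, and without wildtype replicate 1 it was -1.39. Over 15 settings the adjusted p of this term ran from 0.329 to 1.00.

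**Figure D3:**
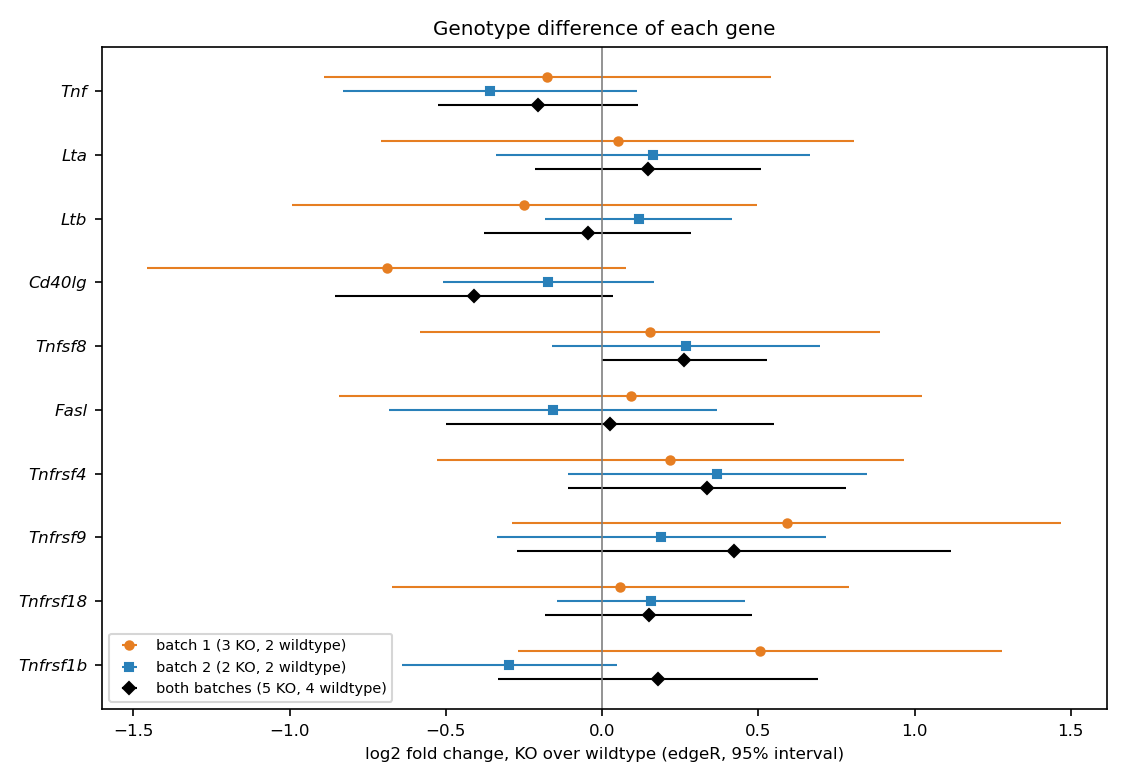
Log2 fold change of each gene, KO over wildtype, from edgeR with its 95% interval, for batch 1 (orange circles), batch 2 (blue squares) and both batches (black diamonds). The intervals of all 10 genes reach 0 in all 3 fits, and those of Tnfrsf1b in batch 1 and batch 2 are centred on opposite sides of 0.

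Counted over the members, 7 log2 fold changes were positive and 3 negative over both batches, with a median of 0.148, against a median of 0.009 over all 22197 genes, of which 51.4% were positive. The median was 0.075 in batch 1 and 0.136 in batch 2, against 0.042 and -0.016 over all genes. All 4 receptors had positive values over both batches, from 0.15 to 0.42 (without wildtype replicate 2, Tnfrsf1b was -0.154 and Tnfrsf18 0.0123), while the 6 ligands ran from -0.41 to 0.26. By plain CPM, KO libraries all lay above wildtype libraries for 2 members in batch 1 (Tnfsf8 and Tnfrsf1b), where 10.9% of genes did so, and all below for 1 (Cd40lg), where 5.19% did. In batch 2 KO libraries lay above for 2 (Tnfrsf4 and Tnfrsf18; 19.6% of genes) and below for 2 (Fasl and Tnfrsf1b; 20.5% of genes). For 0 members was the direction the same in both batches, against 2% of genes above in both and 1.07% below in both. For 10 members, counts of 1 or 2 are near these background shares. With TMM-scaled library sizes, KO libraries were all above wildtype for 0 members in batch 1 (7.68% of genes) and all below for 0 (6.19% of genes), so the batch 1 separations rest on scaling by plain totals. In batch 2 with that scaling KO libraries lay above for the same 2 (16.6% of genes) and below for 4 (23.4% of genes), Tnf and Cd40lg besides Fasl and Tnfrsf1b. For Cd40lg the nearest KO and wildtype values were then both 192.0 CPM after rounding.

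KO replicate 2 was above its batch mean for 9 of 10 members and was the highest library of batch 1 for all 4 receptors and for Ltb. KO replicate 1, KO replicate 3 and wildtype replicates 1 and 2 were each above the batch mean for at most 1 receptor. In batch 2, wildtype replicate 3 was under the batch mean for all 4 receptors and lowest for Tnfrsf4, Tnfrsf9 and Tnfrsf18, while KO replicates 4 and 5 and wildtype replicate 4 were each above it for 3. KO replicate 4 was the lowest library of batch 2 for Tnfrsf1b. Of the ligands, 5 of 6 were also above the batch mean in KO replicate 2, and KO replicate 3 was highest in batch 1 for Lta, Tnfsf8 and Fasl and lowest for Ltb and Cd40lg. Spread about the batch means, as SD of batch-centred log2(CPM + 1) over 9 libraries, was 0.48 for Tnfrsf9, 0.376 for Cd40lg, 0.368 for Tnfrsf1b and 0.338 for Tnfrsf4, and 0.186 to 0.267 for the other 6 members.

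**Figure D4:**
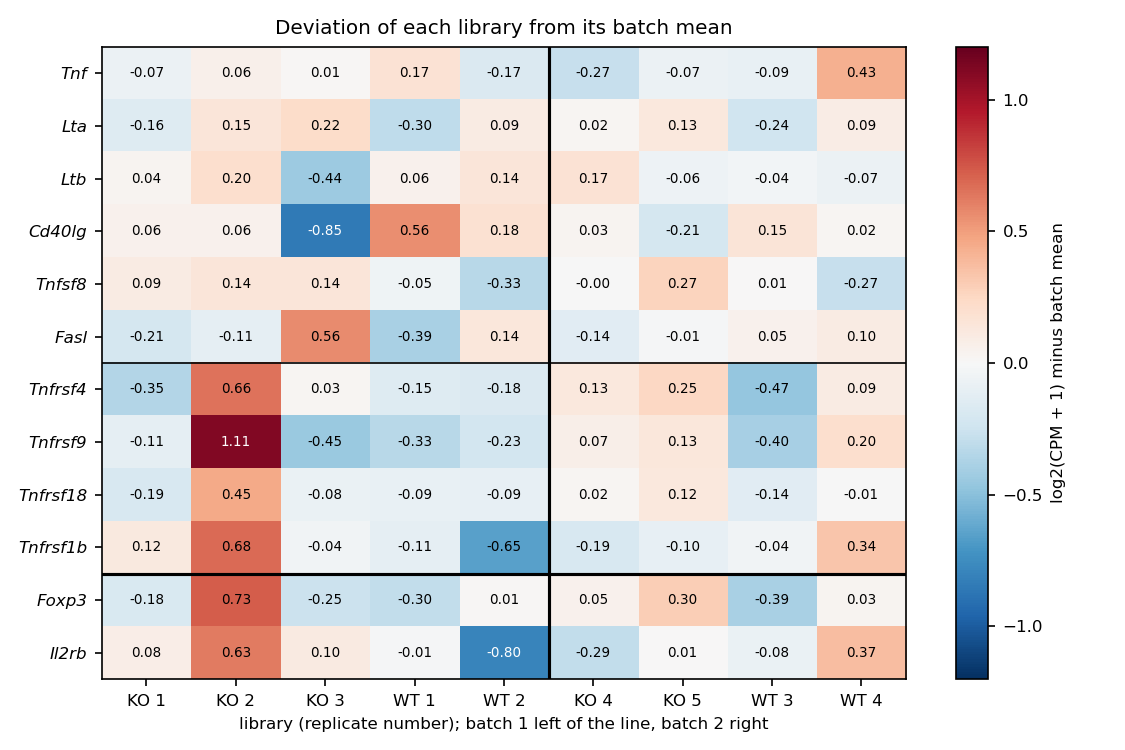
Deviation of each library from its batch mean, as log2(CPM + 1), for ligands (top rows), receptors (middle rows) and the genes Foxp3 and Il2rb (bottom rows), with KO libraries left of wildtype libraries within each batch. KO replicate 2 is above the batch mean for all 4 receptors, at 1.11 for Tnfrsf9, and for Foxp3 and Il2rb, and wildtype replicate 2 is low for Tnfrsf1b and Il2rb.

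The genes with the most similar library profile were looked up for the 3 members with the widest spread, as the smallest root mean square distance in batch-centred log2(CPM + 1) over 9 libraries among 9450 genes. For Tnfrsf9 these were Cd22 (0.172), Foxp3 (0.185) and Asb2 (0.212), where the median gene was at 0.475. Cd22, the nearest, had 14.6, 23.8 and 10.3 CPM in KO libraries of batch 1, against 11.6 and 9.74 CPM in wildtype libraries. In batch 2 Cd22 had 7.68 and 8.88 CPM in KO libraries, against 6.47 CPM in wildtype replicate 3 and 10.2 CPM in wildtype replicate 4. Foxp3, the defining transcription factor of regulatory T cells, had 149.0, 280.0 and 142.0 CPM in KO libraries of batch 1, against 137.0 and 170.0 CPM in wildtype libraries. In batch 2 it had 294.0 and 349.0 CPM in KO libraries, against 217.0 and 290.0 CPM in wildtype libraries, so Foxp3 too was highest in KO replicate 2 in batch 1 and lowest in wildtype replicate 3 in batch 2. For Tnfrsf1b the nearest genes were Il2rb (0.0941), a subunit of the interleukin-2 receptor, Myo1c (0.111) and Dglucy (0.131), with the median gene at 0.376. Il2rb had 263.0, 385.0 and 268.0 CPM in KO libraries of batch 1, against 247.0 and 143.0 CPM in wildtype libraries, and in batch 2 304.0 and 375.0 CPM in KO libraries, against 352.0 and 482.0 CPM in wildtype libraries. For Cd40lg the nearest were Pfdn1 (0.0892), Swi5 (0.0923) and Bclaf3 (0.102), with the median gene at 0.383, and each was lowest in KO replicate 3 and highest in wildtype replicate 1 in batch 1. The libraries share depth and composition, so these distances are descriptions.

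By summed CPM, KO replicate 2 was the highest library of batch 1 for the lists of regulatory T cell, NF-κB target, proliferation, B cell, monocyte and macrophage, and other TNF ligand genes alike. The summed level of 13 regulatory T cell genes was 790.0 to 1250.0 CPM in KO libraries of batch 1 and 732.0 to 911.0 CPM in wildtype libraries. In batch 2 it was 1410.0 to 1470.0 CPM in KO libraries and 1100.0 to 1520.0 CPM in wildtype libraries, with wildtype replicate 4 highest. Within the list Il2ra was highest in wildtype replicate 1 in batch 1, at 137.0 CPM, against 129.0 CPM in KO replicate 2. Of these 13 genes 8 had positive log2 fold changes over both batches (median 0.221) and 0 were called, with 1 at an unadjusted edgeR p under 0.05. Izumo1r (folate receptor 4), the gene with the smallest p, had 0.47 ± 0.12 and Ikzf4 0.36 ± 0.17 (SE; edgeR adjusted p = 1.00 for each). The sum of 14 proliferation genes was 696.0 to 1090.0 CPM in KO and 547.0 to 1050.0 CPM in wildtype libraries of batch 1, and 903.0 to 1290.0 CPM in KO and 1850.0 to 3220.0 CPM in wildtype libraries of batch 2. All 14 had negative log2 fold changes over both batches (median -0.445; 0 called, 0 at an unadjusted edgeR p under 0.05), among them Mki67 at -0.73 ± 0.40 and Pcna at -0.24 ± 0.15 (SE; edgeR adjusted p = 1.00). The batches differed in this. In batch 1, 6 were positive and 8 negative (median -0.031), with 0 at such a p. In batch 2 all 14 were negative (median -1.116) and all 14 had such a p, against 7.77% of all genes, with 0 called. The part of these lists in the values of the members was not tested.

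Markers of other cell types also differed between libraries. The 7 neutrophil markers summed to 637.0 to 1030.0 CPM in KO and 296.0 to 839.0 CPM in wildtype libraries of batch 1, and to 5.15 to 8.31 CPM in KO and 22.8 to 191.0 CPM in wildtype libraries of batch 2. For the 6 monocyte and macrophage markers the sums were 117.0 to 199.0 CPM in KO and 34.3 to 140.0 CPM in wildtype libraries of batch 1, and 47.5 to 51.5 CPM in KO and 80.4 to 92.7 CPM in wildtype libraries of batch 2. These cells also express Tnf and Tnfrsf1b. The monocyte and macrophage sums overlapped between KO and wildtype libraries in batch 1 and were higher in the wildtype libraries in batch 2. The 6 dendritic cell markers summed to at most 40.6 CPM, the 4 matched of 5 B cell markers to at most 54.1 CPM, and the 5 natural killer cell markers, a cell type that makes Fasl, to 52.4 to 66.2 CPM in KO and 48.8 to 55.8 CPM in wildtype libraries. The 4 erythroid markers reached 878.0 CPM in wildtype replicate 3 and at most 47.1 CPM in KO libraries. The 7 matched of 8 CD4 T cell markers summed to 3010.0 to 3270.0 CPM in KO and 3450.0 to 3690.0 CPM in wildtype libraries of batch 1, and to 4420.0 to 4430.0 CPM in KO and 3850.0 to 4140.0 CPM in wildtype libraries of batch 2. By plain CPM, KO libraries were thus under wildtype libraries in batch 1 and over them in batch 2 for the markers of the labelled cell type. In batch 1 that order did not hold after TMM scaling. Wildtype replicate 2 (3450.0 CPM) had a factor of 1.263, against 1.074 for KO replicate 1 (at least 3010.0 CPM). The 2 CD8 markers summed to at most 18.9 CPM. The part of these cells in the members' values was not tested.

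No other family gene that was tested was called over both batches. Of 12 other TNF superfamily ligands 9 were tested over both batches, 4 with positive and 5 with negative log2 fold changes (median -0.004; 0 called, 0 at an unadjusted edgeR p under 0.05). Tnfsf14 (LIGHT), a ligand of activated T cells, averaged 13.1 CPM in KO and 13.1 CPM in wildtype libraries of batch 1, and 16.1 CPM in KO and 25.7 CPM in wildtype libraries of batch 2, with a log2 fold change of -0.35 ± 0.22 over both (SE; edgeR adjusted p = 1.00). Eda (ectodysplasin) was at or under 3.75 CPM in every library (-1.17 ± 1.15; edgeR adjusted p = 1.00). Of 24 other receptors 23 were tested, 18 positive and 5 negative (median 0.141; 0 called, 1 at an unadjusted edgeR p under 0.05). Over all genes 51.4% were positive. Some of the positive receptors were near silent in batch 2. There Tnfrsf11b, Eda2r and Edar averaged 0 CPM in both groups, and Cd40, Ngfr and Tnfrsf11a at most 0.528 CPM. Tnfrsf22, a decoy receptor for the ligand TRAIL with close relatives beside it among which estimated counts may be split, had 44.3, 39.6 and 54.4 CPM in KO libraries of batch 1, against 33.4 and 33.1 CPM in wildtype libraries, and in batch 2 38.0 and 35.5 CPM in KO libraries, against 30.2 and 25.7 CPM in wildtype libraries. By plain CPM every KO library was above every wildtype library of its batch, as for the 2% of genes given above. In batch 1 that order did not hold after TMM scaling. KO replicate 3 (54.4 CPM) had a factor of 1.727, against 0.933 for wildtype replicate 1 (33.4 CPM). The log2 fold change of Tnfrsf22 was 0.41 ± 0.12 (SE; edgeR unadjusted p = 0.00595, adjusted p = 1.00). Tnfrsf12a (FN14) had -0.59 ± 0.34 (SE; edgeR adjusted p = 1.00). Cd27, a costimulatory receptor of naive and memory T cells, had 257.0, 295.0 and 280.0 CPM in KO libraries of batch 1, against 321.0 and 315.0 CPM in wildtype libraries. For batch 2 Cd27 had 385.0 and 364.0 CPM in KO libraries, against 301.0 and 276.0 CPM in wildtype libraries. By plain CPM its groups too were apart in opposite directions. Over all genes 5.19% were below in batch 1 and 19.6% above in batch 2, and the share with both was not counted. In batch 1 the separation of Cd27 did not hold after TMM scaling. Wildtype replicate 2 (315.0 CPM) had a factor of 1.263, against 1.065 for KO replicate 2 (295.0 CPM).

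Downstream and upstream genes were read the same way. Of 25 adaptor and signalling genes 9 were positive and 16 negative over both batches (median -0.017; 0 called). Neither here nor among the NF-κB targets and shedding genes below was an unadjusted edgeR p under 0.05 in the fit over both batches. Tab2, which couples TRAFs to the kinase TAK1, had -0.22 ± 0.13 and Sharpin, part of the linear ubiquitin ligase, 0.15 ± 0.10 (SE; edgeR adjusted p = 1.00). Of 16 NF-κB target genes 8 were positive and 8 negative (median -0.016; 0 called), with medians of 0.077 in batch 1 and -0.263 in batch 2. Within batches, 1 of the 16 had an unadjusted edgeR p under 0.05 in batch 1 (1.97% of all genes) and 3 in batch 2 (7.77%). Nfkbiz, an atypical NF-κB inhibitor family protein, had -0.27 ± 0.13 and Tnfaip3 (A20), which terminates TNF receptor signals, -0.59 ± 0.32 (SE; edgeR adjusted p = 1.00). The 3 genes of ectodomain shedding were all negative (median -0.153; 0 called), among them Rhbdf2, which guides the TNF-cleaving protease to the surface, at -0.20 ± 0.23, and Adam10 at -0.15 ± 0.18. Of 16 T cell receptor response genes tested 5 were positive and 11 negative (median -0.339; 0 called, 5 with an unadjusted edgeR p under 0.05). Dusp5, a phosphatase that acts on ERK, had -0.86 ± 0.17 and Nr4a3, an early gene of antigen stimulation, -0.85 ± 0.20 (SE; edgeR adjusted p = 1.00 for each). Tnf, Lta, Cd40lg, Fasl, Tnfrsf4, Tnfrsf9 and Tnfrsf18 are also induced by T cell receptor stimulation. Of these Tnf and Cd40lg were negative and the other 5 positive over both batches, none called. Fasl is counted as positive at 0.02 ± 0.24 (SE), and its sign changed with the processing.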

How the data were processed

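Libraries of total RNA from CD4+ T cells were built with an Ovation kit, per the labels' protocols, and read from one end. The submitters' processing notes list Salmon 1.2.0, R 4.0.3 and GRCm39, with no role stated. Expected counts (estimated counts per gene) were deposited by the authors in a single table. Nonzero values were fractional, so scaling by transcript length is possible; strand setting and annotation are not stated in any source used here. Values were rounded to whole numbers.

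Depth was 4926347 to 11296593 counts per library for batch 1, and 45013017 to 69844721 for batch 2; the floors of 3 counts cover counting error only, while intervals of fold changes include the spread between libraries. CPM is counts over the plain library total. Tests used edgeR 4.0.16 in R 4.3.3 (quasi-likelihood, robust, TMM, default filter with minimum count 10 and minimum total 15, Benjamini-Hochberg adjustment, threshold 0.05), with batch and genotype over 9 libraries, within each batch, and for their interaction. limma 3.58.1 (voom) and DESeq2 1.42.0, other scaling, no filter, other covariates and left-out libraries were alternatives. The script was tested on simulated data. Exon lengths are the union of GENCODE vM21 exons (GRCm38), used as lengths only.

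All 10 members are named; of each other list, the 2 genes with the smallest unadjusted p over both batches, since none was called. Cd27 was named after its values were seen. The members and lists were chosen with earlier results of these data known.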

Additional observations from a re-analysis of the deposited data

Results flagged for a closer look

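Among 20 sets of values (10 genes, KO or wildtype libraries of both batches together), 2 held 1 library far from the rest by Dixon's ratio, and chance gives about 1 in 20. Cd40lg was at 71.8 CPM in KO replicate 3, against 133.0 to 157.0 CPM in the other KO libraries. Fasl was at 6.46 CPM in wildtype replicate 1, against 9.74 to 10.3 CPM in the other wildtype libraries.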

How the results depend on the processing

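In the main fits no member was called, and that held under every alternative run except 1: the calls in batch 2 ran from 0 to 1 with 1 library left out, the 1 being Tnfrsf4 without wildtype replicate 4. Signs of members' fold changes reversed, in 12 of 160 alternatives over both batches, 16 of 110 in batch 1, 1 of 100 in batch 2 and 0 of 14 for the interaction of Tnfrsf1b. Over both batches Fasl was -0.10 with limma-voom, -0.08 with no filter and -0.0234 with no batch term. Deviations from the group means correlated at 0.426, -0.45, -0.083 and -0.132 between same-numbered KO and wildtype libraries, replicates 1 to 4. In groups of 2 libraries these deviations are mirror images, and replicate 3 spans both batches. These values therefore cannot show whether replicate numbers pair the libraries. With replicate number as a block, 0 members and 1 gene were called, Ltb was 0.10 and Fasl -0.11. In batch 1 DESeq2 size factors gave -0.0716 for Lta, -0.0362 for Fasl and -0.0672 for Tnfrsf18 and the DESeq2 test -0.0717, -0.0362 and -0.0671 in the same order, and the median of all genes was 0.042 with TMM, 0.114 with upper-quartile scaling and -0.081 with DESeq2 size factors. With 1 library left out, log2 fold changes over both batches ran from -0.153 to 0.0915 for Fasl, -0.128 to 0.0417 for Ltb and -0.154 to 0.318 for Tnfrsf1b. In batch 1 they ran from -0.507 to 0.208 for Tnf, -0.0509 to 0.122 for Lta, -0.0722 to 0.201 for Fasl, -0.153 to 0.486 for Tnfsf8, -0.244 to 0.235 for Tnfrsf18, -0.203 to 0.41 for Tnfrsf4 and -0.151 to 0.922 for Tnfrsf9, and in batch 2 from -0.0633 to 0.481 for Tnfrsf9. Where 1 wildtype library remained, it was assumed to vary like the others. Calls over all genes ran from 0 to 16 over both batches, 3 to 118 in batch 1, 0 to 879 in batch 2 and 0 to 238 for the interaction. Mean CPM per group changed by a factor of 0.77 to 0.958 in batch 1 and 1.22 to 1.25 in batch 2 with TMM library sizes, and by 1.12 to 1.13 in both without sensory receptor and the 20 most abundant genes. The depth of batch 1 limits Fasl most, with 48 counts in its lowest library.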
